A study of Mus musculus with 12 samples.

Results

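The numbered Zfp genes are the mouse genes whose symbol is Zfp followed by a number alone, most of which encode proteins with C2H2 zinc fingers. They were followed in fibroblasts of mouse embryos on 12 Affymetrix Mouse Genome 430 2.0 arrays, as 264 genes out of 12427 genes tested. The members were selected on symbol and on signal level, by a rule that used no difference between groups. The family itself was chosen with earlier results of these data known. Zfp36 and its relatives were left out, and each gene was represented by the probe set with the highest mean log2(signal + 8). A gene stayed in if its signal reached 25.5 on at least 2 arrays. Of 304 such genes with a named probe set, 264 passed and 40 did not, and 177 of the 264 reached 25.5 on all 12 arrays. Just inside the limit, Zfp957 had a second-highest signal of 26.1, and just outside it Zfp882 had 25.3. None of the 264 passed through 1 group alone. By annotation, 263 were protein coding and 1 was a lncRNA.

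A C2H2 zinc finger is a small fold held by a zinc ion, and tandem arrays of such fingers read DNA sequence. Many numbered Zfp proteins also carry a KRAB domain, which recruits the corepressor TRIM28 (KAP1) and through it the histone methyltransferase SETDB1; this system silences retroelements and protects genomic imprints in embryos, and its genes lie in tandem clusters. Other members have no such domain and act in development, among them Zfp503, Zfp703 and Zfp521. IL-1b signals through its receptor, MyD88 and the kinases IRAK4 and IRAK1 to NF-kB and MAP kinases in fibroblasts.

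The study stimulated mouse embryonic fibroblasts (MEFs) of IRAK4 kinase-dead animals, in which the catalytic activity of IRAK4 is lost, and of wild-type (WT) animals with 1 ng/ml IL-1b. Each genotype had 3 groups of 2 arrays: 1 h of IL-1b, 4 h of IL-1b, and unstimulated cells grown for 4 h. All cells were grown in medium with serum, and the labels name neither strain nor age nor the number of embryos. The replicates are called biological without naming separate animals or cultures, so the p-values measure only the spread between these samples, which may be technical. Since the unstimulated cells were grown for 4 h, time in culture and IL-1b cannot be told apart at 1 h. The same holds for the step from 1 h to 4 h. A kinase-dead allele changes the protein, so the level of its transcript is no check of the labels.

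The values are MAS5 signal intensities on a linear scale, with array medians of 23 to 28.3 and a trimmed mean of 150 on every array. The members lay low: their median mean signal was 81.8, against 127 over all genes tested, and their mean signals ran between 14.5 and 2272. Replicate arrays correlated at r of 0.965 to 0.974 over the members. All 9 fibroblast markers were detected, with summed signals of 27956 to 33698 on the 12 arrays. Of the markers of other cell types, 6 of 8 macrophage genes, 5 of 5 neural genes, 2 of 5 pluripotency genes, 2 of 4 endothelial genes and 1 of 4 epithelial genes passed the filter. In these bulk samples fewer cells of a type and less RNA per cell cannot be told apart.

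After 1 h of IL-1b, 41 members fell and 3 rose in WT cells. The falls ran from 0.42 to 2.47 on the log2 scale with a median of -0.93, and 17 of them were at least 2-fold. A member was called when its adjusted p was below 0.05 in limma, with Benjamini-Hochberg adjustment over all 12427 genes. The 41 are 15.5% of the members, where 4.56% of all genes tested were called lower, and the 3 are 1.14%, where 2.92% of all genes were called higher. The median log2 fold change was -0.28 over the members and -0.06 over all genes, and 72.0% of the members had a negative value, against 57.6% of all genes. The WT 1 h arrays had medians of 23 and 23.8, against 25.9 and 28.3 in unstimulated WT cells. With each array centred on its median, 32 fell and 6 rose. The medians were then -0.20 over the members and 0.02 over all genes, and no share of all genes called is given here. Without WT 1 h replicate 1 the 2 counts together came to 22, and without replicate 2 of that group to 25. Leaving out an array leaves a group of 1, which is then assumed to vary like the other groups.

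**Figure D1:**
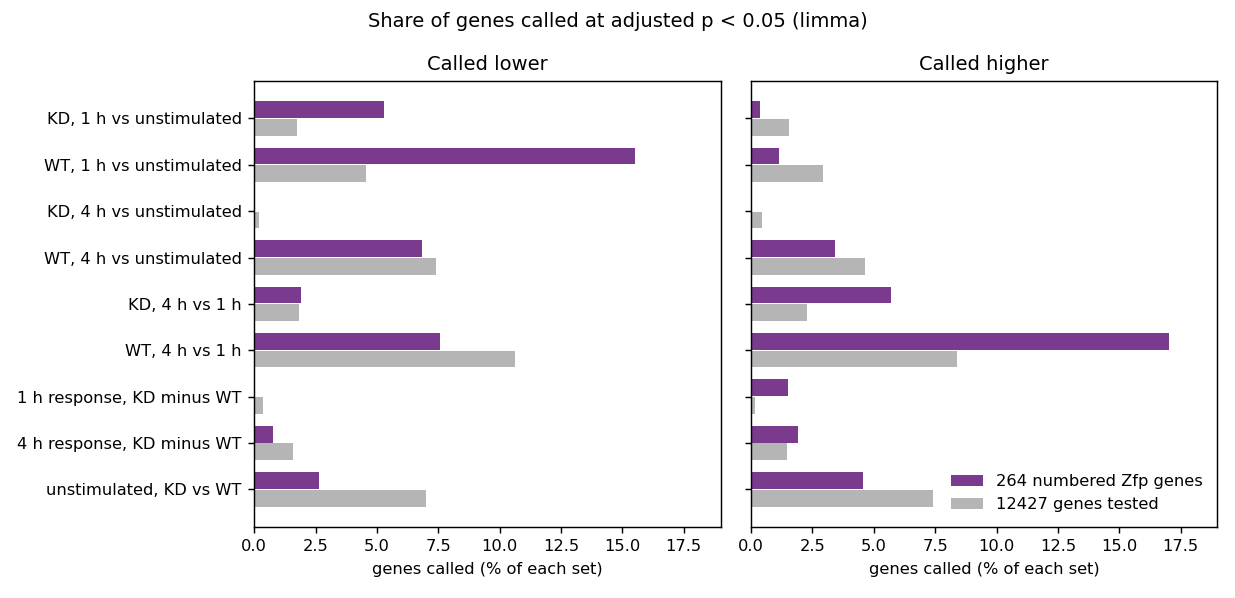
Bars give the percentage of genes called lower (left) and higher (right) at an adjusted p below 0.05 in limma, for the 264 numbered Zfp genes and for all 12427 genes tested, in each of 9 comparisons (KD, kinase dead). The members reach 15.5% lower in WT cells at 1 h and 17.05% higher between 1 h and 4 h, with 4.56% and 8.4% over all genes; in WT cells at 4 h against unstimulated cells, the excess of lower over higher members turns round when arrays are centred on their medians.

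At 1 h in WT cells 38 calls belonged to genes that the naming rule selects, and 15 of these held in each of the 12 fits without 1 array. Such genes were preferred for the text, a preference made after seeing the values. Zfp87, on chromosome 13, was one of these. Zfp87 signals in WT cells were 273 and 298 unstimulated, 44.6 and 51.2 after 1 h, and 191 and 184 after 4 h. All 4 arrays of the other times lay far above both 1 h arrays. The log2 fold change of Zfp87 in WT cells at 1 h against unstimulated cells was -2.39 ± 0.17 (SE, n = 2 each), with an adjusted p of 6.96e-08 in limma. SEs here and below take the spread of a gene from the limma fit over all 12 arrays, and n counts the arrays compared.

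Zfp40 (chromosome 17) fell to signals near the bottom of the scale. In WT cells Zfp40 had signals of 61.2 and 64.5 unstimulated, 6.9 and 2.9 at 1 h, and 16.8 and 40.7 at 4 h. Both 1 h signals lay far below 25.5, where the pseudocount of 8 shrinks a fold change, and both were below every other array of the gene. This fall of Zfp40 in WT cells at 1 h against unstimulated cells was -2.47 ± 0.33 on the log2 scale (adjusted p = 0.000136, limma).

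Zfp53 and Zfp420 were lowest at 1 h and highest at 4 h in WT cells, so the bases before their start sites are shown, as RefSeq places them in GRCm38.p6. Capitals mark matches to CCAAT or to CCGGAAG, the core of an ETS site, on either strand (a CCAAT on the other strand reads ATTGG). The windows hold 250 bases up to the start: Zfp53 at chr17:21488738-21488987 (plus strand) and Zfp420 at chr7:29859762-29860011 (plus strand).
Zfp53: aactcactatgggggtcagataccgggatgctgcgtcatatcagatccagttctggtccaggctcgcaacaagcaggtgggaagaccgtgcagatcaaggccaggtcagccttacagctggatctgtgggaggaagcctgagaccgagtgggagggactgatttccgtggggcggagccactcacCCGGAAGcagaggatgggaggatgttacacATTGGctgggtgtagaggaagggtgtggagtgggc
Zfp420: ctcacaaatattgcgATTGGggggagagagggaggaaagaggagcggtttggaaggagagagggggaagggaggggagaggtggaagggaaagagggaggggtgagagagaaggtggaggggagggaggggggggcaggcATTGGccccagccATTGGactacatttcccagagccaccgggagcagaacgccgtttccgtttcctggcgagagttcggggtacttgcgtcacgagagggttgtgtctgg

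The WT arrays of Zfp53 gave 73.4 and 69.8 unstimulated, 16.1 and 19.9 at 1 h, and 106 and 105 at 4 h. The 1 h arrays were lowest and the 4 h arrays highest, with no overlap between any of the 3 groups. Zfp53 thus had a log2 fold change of -1.62 ± 0.20 in WT cells at 1 h against unstimulated cells (adjusted p = 5.89e-05, limma). The rise that followed was larger, at 2.13 ± 0.20 between 1 h and 4 h (adjusted p = 9.7e-07, limma). A second, dimmer probe set of Zfp53 was not called at 1 h (log2 fold change -0.15, adjusted p = 0.801).

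The protein of Zfp420 is known in human as ZNF420 or Apak, a KRAB protein that restrains p53. For Zfp420, the WT signals were 252.5 and 257 without IL-1b, 112 and 77.2 after 1 h, and 365 and 365 after 4 h. Its order was the same as that of Zfp53, 1 h lowest and 4 h highest, again without overlap. Zfp420 in WT cells at 1 h against unstimulated cells gave a log2 fold change of -1.38 ± 0.17 in limma (adjusted p = 7.65e-05). Between 1 h and 4 h it rose by 1.88 ± 0.17 (adjusted p = 8.87e-07, limma). At 4 h against unstimulated cells the log2 fold change was 0.50 ± 0.17 and missed the threshold (adjusted p = 0.071, limma).

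The other steady falls at 1 h were between 0.62 and 1.30 on the log2 scale. Zfp563 stood at 75.4 and 114 in unstimulated WT cells, 29.7 and 36.7 after 1 h of IL-1b, and 57.1 and 71.5 after 4 h. On the log2 scale this was -1.30 ± 0.22 for Zfp563 in WT cells at 1 h against unstimulated cells (adjusted p = 0.00133, limma). On WT arrays the signal of Zfp39 was 208 and 257 unstimulated, 124 and 94.7 at 1 h, and 201 and 166 at 4 h. Both 1 h arrays of Zfp563 and of Zfp39 lay below their other 4 WT arrays. Here Zfp39 in WT cells at 1 h against unstimulated cells gave -1.04 ± 0.16 on the log2 scale (adjusted p = 0.000565, limma). Zfp974 signals in WT cells were 90.7 and 95.4 unstimulated, 35.9 and 40.9 after 1 h, and 104 and 84.1 after 4 h. Here too the 1 h arrays stood alone at the low end. The log2 fold change of Zfp974 in WT cells at 1 h against unstimulated cells was -1.12 ± 0.20 (SE, n = 2 each), with an adjusted p of 0.0018 in limma. The other probe set of Zfp974 fell as well (log2 fold change -1.10, adjusted p = 0.00141, limma).

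**Figure D2:**
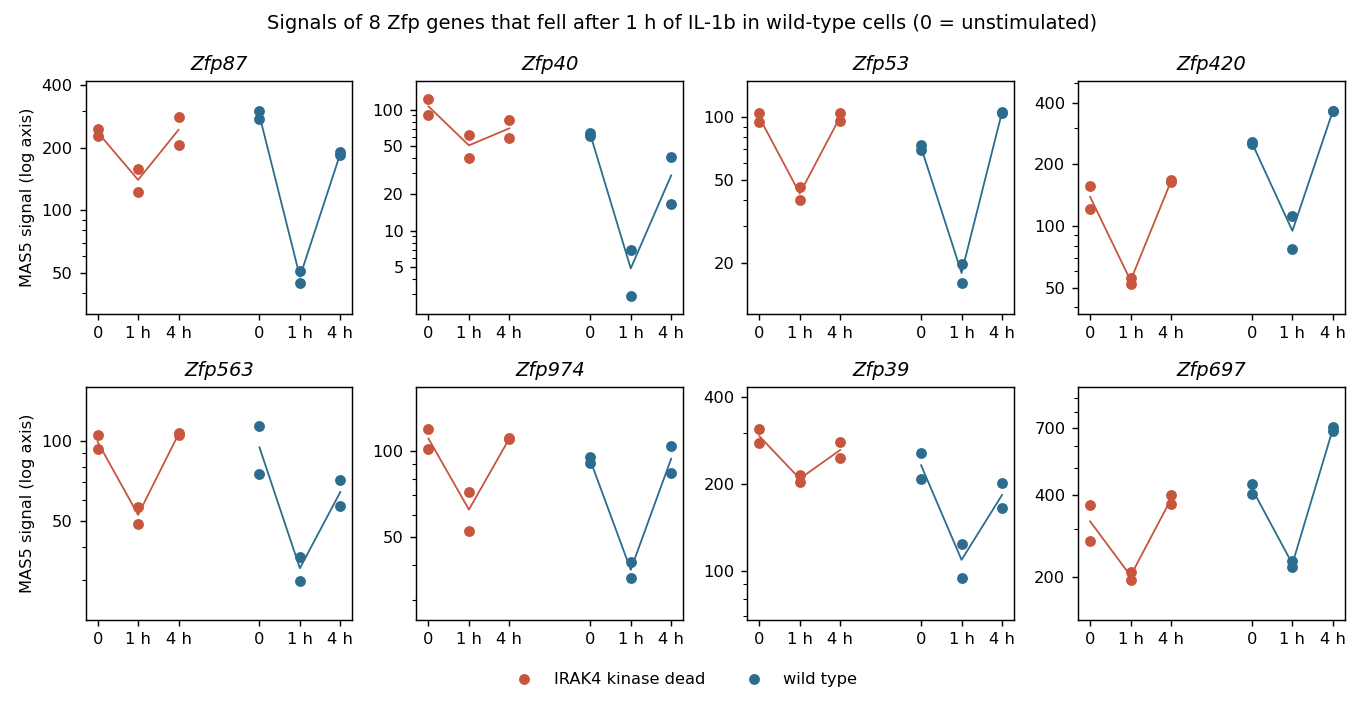
MAS5 signal (log axis) of 8 members that fell in WT cells at 1 h, for kinase-dead arrays (left of each panel) and WT arrays (right) at 0 (unstimulated), 1 h and 4 h; points are single arrays and lines join the means of 2. In WT cells the 1 h points of all 8 genes are the lowest, such as 44.6 and 51.2 for Zfp87, and in kinase-dead cells Zfp420 dips as well, to 52.2 and 56.

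Zfp799, Zfp760 and Zfp12 fell by about the same amount. In WT cells Zfp799 had signals of 573 and 567 unstimulated, 273 and 256 at 1 h, and 436 and 479 at 4 h. This fall of Zfp799 in WT cells at 1 h against unstimulated cells was -1.09 ± 0.12 on the log2 scale (adjusted p = 1.32e-05, limma). The 1 h arrays of Zfp799 were the lowest of its 6, and the 4 h arrays lay between the other groups. The WT arrays of Zfp760 gave 276 and 284 unstimulated, 144 and 132 at 1 h, and 222 and 274 at 4 h. Zfp760 thus had a log2 fold change of -0.98 ± 0.14 in WT cells at 1 h against unstimulated cells (adjusted p = 0.000236, limma). Those of Zfp760 at 1 h were likewise the lowest. For Zfp12, the WT signals were 176.5 and 161 without IL-1b, 86.2 and 76 after 1 h, and 129 and 138.5 after 4 h. Zfp12 in WT cells at 1 h against unstimulated cells gave a log2 fold change of -0.99 ± 0.16 in limma (adjusted p = 0.000772). For Zfp12 as well, no array of another time fell within the 1 h range.

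Zfp703 and Zfp697 are further steady cases. Zfp703 is a corepressor related to Zfp503, and its human counterpart ZNF703 is an oncogene of luminal breast tumours. Zfp703 stood at 1006 and 1144 in unstimulated WT cells, 733 and 663 after 1 h of IL-1b, and 1077 and 979.5 after 4 h. On the log2 scale this was -0.62 ± 0.10 for Zfp703 in WT cells at 1 h against unstimulated cells (adjusted p = 0.00121, limma). The 1 h arrays of Zfp703 were the lowest, and its unstimulated and 4 h arrays overlapped. On WT arrays the signal of Zfp697 was 402 and 439 unstimulated, 229 and 219 at 1 h, and 682 and 702 at 4 h. The 3 groups of Zfp697 did not overlap, with 1 h lowest and 4 h highest. Here Zfp697 in WT cells at 1 h against unstimulated cells gave -0.88 ± 0.14 on the log2 scale (adjusted p = 0.000512, limma).

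Among members with a known role, Zfp809, a KRAB protein that brings TRIM28 to retroviral DNA, had 110 and 123.5 on WT 1 h arrays, against 215 and 164 in unstimulated WT cells. The log2 fold change of Zfp809 in WT cells at 1 h against unstimulated cells was -0.65 ± 0.18 (SE, n = 2 each), with an adjusted p of 0.038 in limma. This call was lost in 5 of the 12 fits without 1 array, with an adjusted p of up to 0.221 without WT unstimulated replicate 1. Zfp207 (BuGZ), which binds Bub3 and supports spindle assembly, gave a log2 fold change of -0.51 ± 0.13 (adjusted p = 0.0261, limma), lost without WT unstimulated replicate 1 (adjusted p = 0.12) or WT 1 h replicate 1 (0.306). None of its 5 other probe sets was called. Zfp57, which maintains genomic imprints, was not called (0.27 ± 0.25, adjusted p = 0.584, limma).

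The 3 members that rose at 1 h were Zfp292, Zfp568 and Zfp644. Zfp292 signals in WT cells were 254 and 298 unstimulated, 456 and 512 after 1 h, and 214 and 194 after 4 h. Signals were highest at 1 h and lowest at 4 h, without overlap. This rise of Zfp292 in WT cells at 1 h against unstimulated cells was 0.79 ± 0.14 on the log2 scale (adjusted p = 0.00212, limma). Its probe set may pick up more than 1 transcript by its name, but a second one of the gene rose too (log2 fold change 0.67, adjusted p = 0.0181), and 3 others were not called. Zfp568, a KRAB protein that represses a placental Igf2 transcript in mouse embryos, was higher on both 1 h arrays than on the other 4. In WT cells Zfp568 had signals of 245 and 238 unstimulated, 368.5 and 354 at 1 h, and 306.5 and 327 at 4 h. Zfp568 thus had a log2 fold change of 0.56 ± 0.14 in WT cells at 1 h against unstimulated cells (adjusted p = 0.0198, limma). That call was lost without WT unstimulated replicate 2 (adjusted p = 0.0582), WT 1 h replicate 1 (0.126) or replicate 2 (0.0933). Zfp644 rose by 0.43 (adjusted p = 0.0469, limma) and lost its call in 9 of the 12 fits without 1 array.

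Between 1 h and 4 h in WT cells, 45 members rose and 20 fell, 17.05% and 7.58% of the members, where 8.4% of all genes tested rose and 10.6% fell. The median log2 fold change was 0.15 over the members and -0.04 over all genes. The 41 members that fell at 1 h had a median of -0.93 at 1 h and -0.11 at 4 h against unstimulated cells; the 1 h and 4 h comparisons share the unstimulated arrays, and the step between the times shares the 1 h arrays. Without WT 1 h replicate 1, WT 1 h replicate 2 or WT 4 h replicate 2, the count of 65 went to 38, 41 and 42.

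Rises between 1 h and 4 h that held in each fit without 1 array included Zfp35, Zfp668 and Zfp52. The WT arrays of Zfp668 gave 20.7 and 31.9 unstimulated, 1.8 and 2.5 at 1 h, and 42.2 and 42.7 at 4 h. Zfp668 in WT cells at 4 h against 1 h gave a log2 fold change of 2.31 ± 0.39 in limma (adjusted p = 0.000441). The 1 h signals of Zfp668 were close to the bottom of the scale and its 4 h arrays the highest. For Zfp52, the WT signals were 120.1 and 121 without IL-1b, 84.1 and 68.1 after 1 h, and 193 and 262 after 4 h. On the log2 scale this was 1.48 ± 0.20 for Zfp52 in WT cells at 4 h against 1 h (adjusted p = 4.07e-05, limma). Zfp52 neighbours Zfp53 on chromosome 17, and its 4 h arrays were likewise above the others. Zfp35 stood at 203 and 194 in unstimulated WT cells, 98.4 and 114 after 1 h of IL-1b, and 297.5 and 273.5 after 4 h. The 4 h arrays were the highest for Zfp35 as well. Here Zfp35 in WT cells at 4 h against 1 h gave 1.36 ± 0.15 on the log2 scale (adjusted p = 4.3e-06, limma). Zfp217, whose human counterpart ZNF217 is an oncogene that works with the CoREST complex, also rose (0.69 ± 0.12, adjusted p = 0.000525, limma).

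Against unstimulated WT cells, 9 members rose and 18 fell at 4 h, but with arrays centred on their medians the split turned to 14 higher and 11 lower. The 9 are 3.41% and the 18 are 6.82% of the members, where 4.65% of all genes were called higher and 7.4% lower. All genes had a median of -0.12 in this comparison and the members one of -0.14. With centred arrays the medians were 0.03 and 0.01, and no share of all genes called is given here. The falls ran from 0.42 to 1.42 and the rises from 0.38 to 0.86 on the log2 scale. Of 23 named calls, 10 held in each fit without 1 array. The largest fall, of Zfp248 (-1.42, adjusted p = 0.00701, limma), was lost without WT 4 h replicate 2 (adjusted p = 0.0584).

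Zfp503, a corepressor with roles in the developing brain, and Zfp521, a partner of Ebf1 that steers fibroblast-like progenitors between fat and bone, were among the late falls that held in each fit without 1 array. The 250 bases before the start of Zfp503 (chr14:21989602-21989851, minus strand) are set beside those of Zfp263 (chr16:3743849-3744098, plus strand), a late riser, as RefSeq gives them for GRCm38.p6, with the same capitals; the window of Zfp503 has no such letters.
Zfp503: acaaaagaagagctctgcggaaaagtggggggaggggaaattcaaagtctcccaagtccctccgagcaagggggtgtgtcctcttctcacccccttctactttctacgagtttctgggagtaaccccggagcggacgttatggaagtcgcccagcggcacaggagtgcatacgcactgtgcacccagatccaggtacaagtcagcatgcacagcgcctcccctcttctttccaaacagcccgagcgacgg
Zfp263: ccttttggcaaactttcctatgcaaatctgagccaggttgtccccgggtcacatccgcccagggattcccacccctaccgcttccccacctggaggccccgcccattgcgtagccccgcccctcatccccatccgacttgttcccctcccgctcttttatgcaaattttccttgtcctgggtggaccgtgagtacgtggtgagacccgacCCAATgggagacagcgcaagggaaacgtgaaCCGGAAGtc

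On WT arrays the signal of Zfp503 was 461 and 419 unstimulated, 409.7 and 399.8 at 1 h, and 157.5 and 208 at 4 h. The 4 h arrays were by far the lowest, while the 1 h arrays lay just under the unstimulated ones, a difference that was not called. The log2 fold change of Zfp503 in WT cells at 4 h against unstimulated cells was -1.24 ± 0.13 (SE, n = 2 each), with an adjusted p of 5.08e-06 in limma. A dimmer second probe set was not called (log2 fold change -0.16, adjusted p = 0.789).

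Zfp521 signals in WT cells were 429.5 and 417 unstimulated, 621 and 509.9 after 1 h, and 206 and 245 after 4 h. Its 4 h arrays were the lowest and its 1 h arrays the highest. This fall of Zfp521 in WT cells at 4 h against unstimulated cells was -0.89 ± 0.14 on the log2 scale (adjusted p = 0.000469, limma). From 1 h to 4 h the difference was -1.29 ± 0.14 (adjusted p = 6.35e-06, limma), and the second probe set gave -1.24 there (adjusted p = 0.000227) but -0.56 at 4 h against unstimulated cells (adjusted p = 0.0818).

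Zfp362, Zfp704, Zfp710 and Zfp667 were the other steady late falls. In WT cells Zfp362 had signals of 356 and 301.5 unstimulated, 301 and 327 at 1 h, and 185 and 168 at 4 h. Zfp362 thus had a log2 fold change of -0.87 ± 0.12 in WT cells at 4 h against unstimulated cells (adjusted p = 0.000129, limma). The 4 h arrays of Zfp362 were the lowest of the 6, and unstimulated and 1 h arrays overlapped. The WT arrays of Zfp704 gave 131 and 195 unstimulated, 104 and 100 at 1 h, and 72.6 and 83.6 at 4 h. Zfp704 in WT cells at 4 h against unstimulated cells gave a log2 fold change of -0.97 ± 0.20 in limma (adjusted p = 0.00357). The 3 groups of Zfp704 did not overlap, with the unstimulated arrays highest and the 4 h arrays lowest. For Zfp710, the WT signals were 157 and 165.5 without IL-1b, 130 and 112 after 1 h, and 84.3 and 93.8 after 4 h. On the log2 scale this was -0.80 ± 0.15 for Zfp710 in WT cells at 4 h against unstimulated cells (adjusted p = 0.00202, limma). In Zfp710 the 3 groups followed each other downwards without overlap.

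Zfp667 was low at both times. Zfp667 stood at 129.6 and 157 in unstimulated WT cells, 73.9 and 73.6 after 1 h of IL-1b, and 64.4 and 82.1 after 4 h. Its 1 h and 4 h arrays overlapped, and all 4 lay below the unstimulated ones. Here Zfp667 in WT cells at 4 h against unstimulated cells gave -0.90 ± 0.18 on the log2 scale (adjusted p = 0.00241, limma). Against the same unstimulated cells the 1 h value was -0.88 ± 0.18 (adjusted p = 0.00444, limma).

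Zfp277, which represses the Ink4a/Arf locus in mouse fibroblasts, and Zfp579 were low at 4 h against 1 h. On WT arrays the signal of Zfp277 was 125 and 112 unstimulated, 164 and 149.5 at 1 h, and 83 and 51.6 at 4 h. The log2 fold change of Zfp277 in WT cells at 4 h against 1 h was -1.16 ± 0.18 (SE, n = 2 each), with an adjusted p of 0.000245 in limma. The 4 h arrays of Zfp277 were the lowest of the 6. Zfp579 signals in WT cells were 59.8 and 42.8 unstimulated, 50.8 and 49.3 after 1 h, and 12.9 and 21.4 after 4 h. This fall of Zfp579 in WT cells at 4 h against 1 h was -1.23 ± 0.26 on the log2 scale (adjusted p = 0.00284, limma). Against unstimulated cells the fall of Zfp579 (-1.24, adjusted p = 0.00409, limma) was lost without WT unstimulated replicate 1 (adjusted p = 0.0514).

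The steady late rises were Zfp263, Zfp281, Zfp655 and Zfp697. Zfp263 has a human counterpart, ZNF263, with a SCAN and a KRAB domain. In WT cells Zfp263 had signals of 2173 and 1912 unstimulated, 1804 and 1722 at 1 h, and 3347 and 3177 at 4 h. The 4 h arrays were well above the other 4. Zfp263 thus had a log2 fold change of 0.68 ± 0.08 in WT cells at 4 h against unstimulated cells (adjusted p = 2.06e-05, limma). Its other probe set rose as well (log2 fold change 0.87, adjusted p = 0.00404, limma).

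Zfp281 is a repressor of Nanog in embryonic stem cells. The WT arrays of Zfp281 gave 1279 and 1395 unstimulated, 1636 and 1556 at 1 h, and 1994 and 1791 at 4 h. Zfp281 in WT cells at 4 h against unstimulated cells gave a log2 fold change of 0.50 ± 0.09 in limma (adjusted p = 0.00112). Its signals stepped upwards over the 3 groups without overlap. For Zfp655, the WT signals were 1029 and 1111 without IL-1b, 1103 and 1163 after 1 h, and 1515 and 1463 after 4 h. On the log2 scale this was 0.47 ± 0.09 for Zfp655 in WT cells at 4 h against unstimulated cells (adjusted p = 0.00121, limma). For Zfp655 the unstimulated and 1 h arrays overlapped and the 4 h arrays stood above them. The rise of Zfp697, whose signals stand above, came to 0.71 ± 0.14 (adjusted p = 0.00206, limma).

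**Figure D3:**
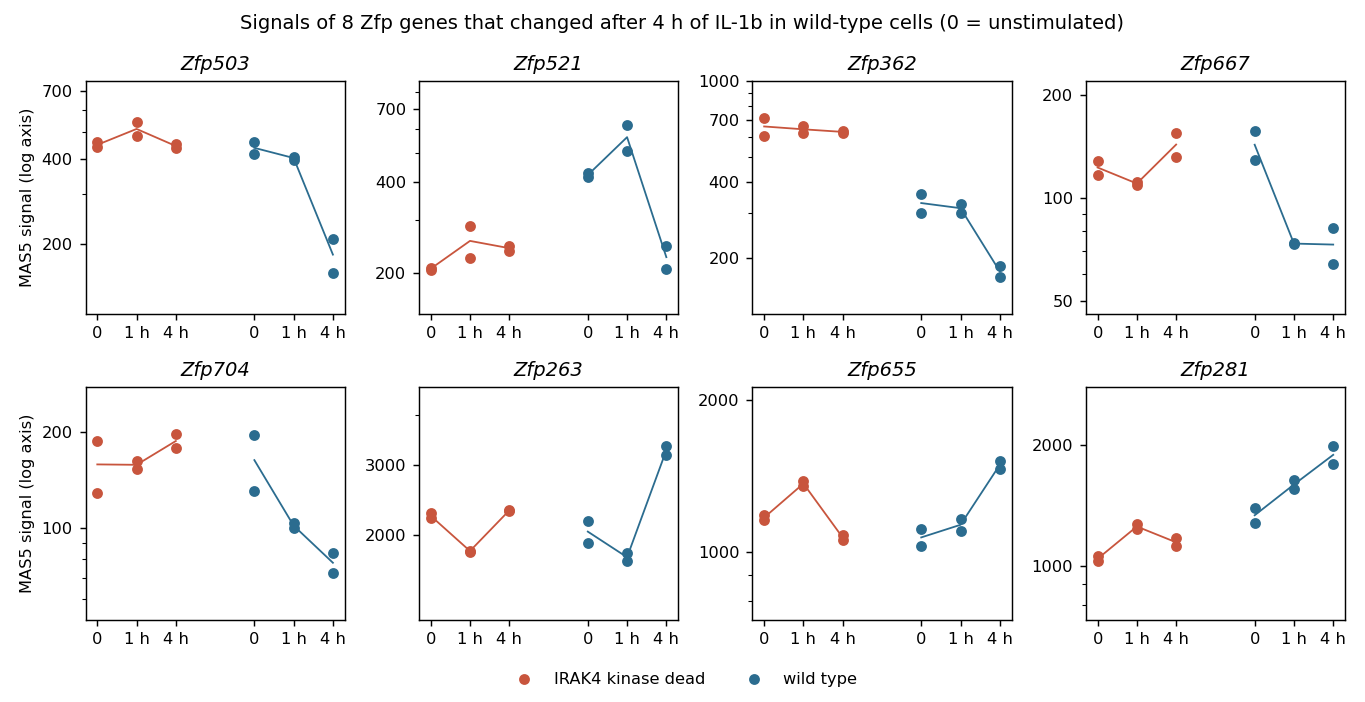
MAS5 signal (log axis) of 8 members that differed in WT cells at 4 h, for kinase-dead arrays (left of each panel) and WT arrays (right) at 0 (unstimulated), 1 h and 4 h; points are single arrays and lines join the means of 2. Zfp503 stands at 453 and 440.3 in kinase-dead cells at 4 h and at 157.5 and 208 in WT cells, and Zfp263 reaches 3347 and 3177 in WT cells at 4 h, with 2313 and 2301 in kinase-dead cells.

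In kinase-dead cells 14 members fell and 1 rose after 1 h of IL-1b, 5.30% and 0.379% of the members, where 1.72% of all genes tested were called lower and 1.55% higher. The falls ran from 0.47 to 1.23 on the log2 scale with a median of -0.72. The median over the members was -0.15, against -0.01 over all genes. These calls rest on few arrays: leaving out kinase-dead unstimulated replicate 1 or 2 brought the count of 15 to 4 and 3, and leaving out replicate 1 or 2 of the 1 h group brought it to 5 and 3. The actin 3'/5' signal ratio, a measure of RNA quality, averaged 2.42 ± 0.0894 at 1 h and 2.85 ± 0.0178 in unstimulated kinase-dead cells (SD, n = 2 each), and its part in these counts was not tested.

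Of the 41 members that fell in WT cells and the 14 that fell in kinase-dead cells, 10 were the same genes, which is 24.4% of the first list and 71.4% of the second. Over all genes tested, 122 were shared, 21.5% of 567 and 57.0% of 214. The 10 were Zfp53, Zfp87, Zfp131, Zfp329, Zfp420, Zfp697, Zfp760, Zfp866, Zfp930 and Zfp974. The log2 fold changes of these comparisons share no array, but the calls take the spread of each gene from the same fit over all groups. Zfp131, for example, had an SE of 0.12 in both genotypes. A gene with a small spread is thus more easily called in both, and the overlap of the lists is not independent. Of the 41 that fell in WT cells, 37 had a negative value in kinase-dead cells, with a median of -0.42, and of all 567 genes that fell in WT cells 515 did, with a median of -0.33. Across the 264 members the log2 fold changes of the genotypes correlated at r = 0.42 (Spearman's rho 0.44), and across all 12427 genes at r = 0.34 (rho 0.35), given as a description over genes that share arrays.

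**Figure D4:**
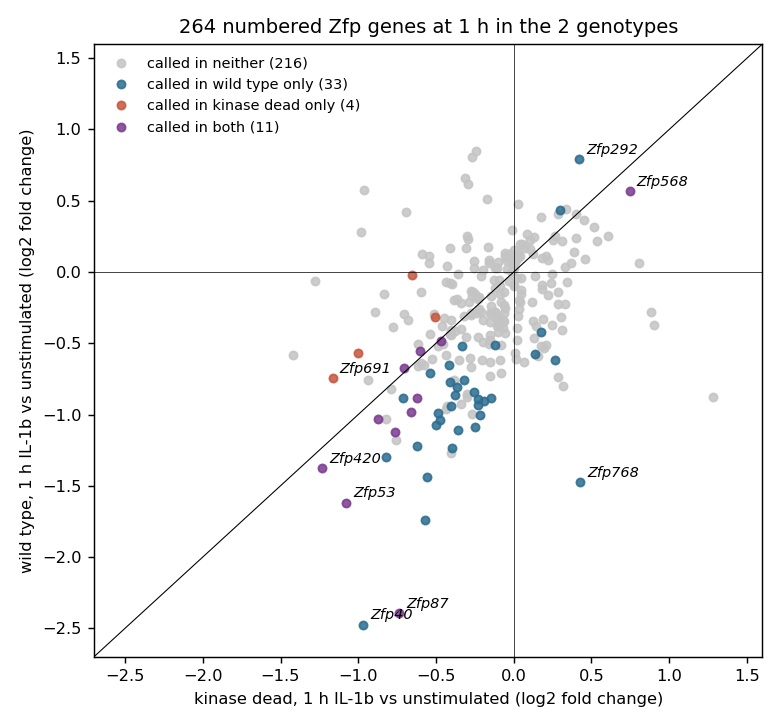
Each point is 1 of the 264 members, placed by its log2 fold change after 1 h of IL-1b in kinase-dead cells (horizontal) and WT cells (vertical), coloured by where it was called. Most called points lie low: 33 were called in WT cells alone, 4 in kinase-dead cells alone and 11 in both, and Zfp568 is the one called higher in both.

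Zfp420 was the only 1 of the 15 whose call held in each fit without 1 array. Zfp420 signals in kinase-dead cells were 121 and 156 unstimulated, 52.2 and 56 after 1 h, and 163 and 168 after 4 h. Signals were lowest at 1 h here too, and the 4 h arrays were just above the unstimulated ones. Here Zfp420 in kinase-dead cells at 1 h against unstimulated cells gave -1.23 ± 0.17 on the log2 scale (adjusted p = 0.000785, limma). In kinase-dead cells Zfp53 had signals of 94.8 and 104.5 unstimulated, 46.1 and 40.1 at 1 h, and 96.2 and 104 at 4 h. The log2 fold change of Zfp53 in kinase-dead cells at 1 h against unstimulated cells was -1.08 ± 0.20 (SE, n = 2 each), with an adjusted p of 0.00732 in limma. In kinase-dead cells the 1 h arrays of Zfp53 lay below the others, and its unstimulated and 4 h arrays overlapped. Without kinase-dead unstimulated replicate 2 or kinase-dead 1 h replicate 2 the adjusted p of Zfp53 was 0.0881 and 0.0774.

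Zfp131, a zinc-finger protein with a BTB domain, had like log2 fold changes in both genotypes. The kinase-dead arrays of Zfp131 gave 377 and 333 unstimulated, 275 and 236 at 1 h, and 354 and 380 at 4 h. Zfp131 stood at 477 and 516 in unstimulated WT cells, 358 and 347 after 1 h of IL-1b, and 505 and 475 after 4 h. In each genotype the 1 h arrays were the lowest. This fall of Zfp131 in kinase-dead cells at 1 h against unstimulated cells was -0.47 ± 0.12 on the log2 scale (adjusted p = 0.0433, limma). The WT value was -0.48 ± 0.12 (adjusted p = 0.0196, limma). Its kinase-dead call was lost in 10 of 12 fits without 1 array, with an adjusted p of up to 0.319 without kinase-dead 1 h replicate 2; its WT call was lost in 3, with one of up to 0.129 without WT 1 h replicate 2.

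Zfp568 was the member that rose in kinase-dead cells. For Zfp568, the kinase-dead signals were 185 and 217 without IL-1b, 301 and 387 after 1 h, and 210.1 and 239.5 after 4 h. Zfp568 thus had a log2 fold change of 0.75 ± 0.14 in kinase-dead cells at 1 h against unstimulated cells (adjusted p = 0.0079, limma). Its 1 h arrays were above the other 4, but the call was lost without kinase-dead unstimulated replicate 1 (adjusted p = 0.07) or kinase-dead 1 h replicate 2 (0.136). Zfp287 and Zfp691 were called lower in kinase-dead cells alone, and whether their response differed between genotypes was tested and not called, at -0.43 ± 0.28 (adjusted p = 0.735, limma) for Zfp287 and -0.42 ± 0.37 (adjusted p = 0.815, limma) for Zfp691.

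At 4 h against unstimulated kinase-dead cells, limma called 0 members, where 0.443% of all genes were called higher and 0.177% lower. At an unadjusted p below 0.05 there were 10 members, 7 higher and 3 lower (2.65% and 1.14% of the members), where 6.61% of all genes were higher and 7.05% lower. The count became 1 without WT unstimulated replicate 1 or 2 and stayed at 0 in the other fits. The median log2 fold change was -0.01 over the members and -0.01 over all genes. The log2 values were -0.01 ± 0.13 (adjusted p = 0.982, limma) for Zfp503 and 0.05 ± 0.08 (adjusted p = 0.864, limma) for Zfp263.

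Between 1 h and 4 h in kinase-dead cells 15 members rose and 5 fell, 5.68% and 1.89% of the members, where 2.28% of all genes rose and 1.83% fell. The median was 0.14 over the members and 0.01 over all genes. Zfp420 and Zfp697 held in each fit without 1 array. Zfp420 in kinase-dead cells at 4 h against 1 h gave a log2 fold change of 1.48 ± 0.17 in limma (adjusted p = 8.62e-05). Zfp697 stood at 272 and 367.5 in unstimulated kinase-dead cells, 209 and 196 after 1 h of IL-1b, and 371 and 399 after 4 h. Its 1 h arrays were the lowest and its 4 h arrays the highest, by a small margin. On the log2 scale this was 0.90 ± 0.14 for Zfp697 in kinase-dead cells at 4 h against 1 h (adjusted p = 0.00106, limma). Zfp524 was called lower (-1.58 ± 0.41, adjusted p = 0.04, limma), from 4 h signals of 3 and 7.6, against 34.5 and 28.1 at 1 h. Its call was lost without any 1 of these 4 arrays (adjusted p of 0.103 to 0.238), and with a pseudocount of 32 its value was -0.76 (adjusted p = 0.0703). The count of 20 went to 6 and 4 without kinase-dead 1 h replicate 1 or 2, and to 4 and 2 without kinase-dead 4 h replicate 1 or 2.

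Whether the response to IL-1b differs between the genotypes was tested directly, as the response in kinase-dead cells minus that in WT cells. At 1 h, 4 members had a higher value in kinase-dead cells and 0 a lower one, 1.52% of the members, where 0.145% of all genes were called higher and 0.346% lower. In limma 24 members had an unadjusted p below 0.05, 22 higher and 2 lower (8.33% and 0.758% of the members), where 4.86% of all genes were higher and 3.53% lower at that p. Zfp87 was the steadiest. On kinase-dead arrays the signal of Zfp87 was 228 and 247 unstimulated, 122 and 158 at 1 h, and 206 and 281 at 4 h. These arrays lay between 122 and 158 at 1 h, against 44.6 and 51.2 in WT cells. Kinase-dead minus WT, the response of Zfp87 differed by 1.66 ± 0.24 (adjusted p = 0.00168, limma). That is, the 1 h log2 fold change was -0.74 ± 0.17 (adjusted p = 0.0248, limma) in kinase-dead cells and -2.39 ± 0.17 (adjusted p = 6.96e-08, limma) in WT cells. The kinase-dead fall was lost without kinase-dead unstimulated replicate 1 or 2 (adjusted p = 0.0711 and 0.203) or kinase-dead 1 h replicate 1 (0.227), and the difference of the responses only without a variance trend (0.0558).

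Zfp703 was another of the 4, with a 1 h value of 0.27 ± 0.10 (adjusted p = 0.192, limma) in kinase-dead cells that was not called. Zfp703 signals in kinase-dead cells were 622 and 593 unstimulated, 745 and 719 after 1 h, and 732 and 807 after 4 h. In kinase-dead cells the unstimulated arrays were the lowest, whereas in WT cells the 1 h arrays were. The difference of the Zfp703 responses, kinase dead minus WT, was 0.88 ± 0.15 (SE) on the log2 scale (adjusted p = 0.00658, limma). Without WT 1 h replicate 2 or kinase-dead 1 h replicate 1 the adjusted p was 0.0648 and 0.0543, and without a variance trend 0.116. Zfp703 was also lower in kinase-dead cells before stimulation, as given further down, and the 2 comparisons share the unstimulated arrays.

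The responses of Zfp799 and Zfp768 differed at 1 h as well, in calls that rest on single arrays. In kinase-dead cells Zfp799 had signals of 571 and 478 unstimulated, 430.1 and 446.5 at 1 h, and 579 and 650.3 at 4 h. These were lowest at 1 h and highest at 4 h. Kinase-dead minus WT, the response of Zfp799 differed by 0.84 ± 0.17 (adjusted p = 0.0275, limma). It lost its call in 5 fits without 1 array, at an adjusted p of up to 0.166 without WT 1 h replicate 2. The kinase-dead arrays of Zfp768 gave 47.2 and 41.4 unstimulated, 57.1 and 67.8 at 1 h, and 60.5 and 43.9 at 4 h. Its kinase-dead 4 h arrays overlapped with both other groups. In WT cells Zfp768 had 15.6 and 29.5 after 1 h, against 87.6 and 63.5 unstimulated. The difference of the Zfp768 responses, kinase dead minus WT, was 1.90 ± 0.39 (SE) on the log2 scale (adjusted p = 0.035, limma). It lost its call in 6 such fits, at up to 0.179 without kinase-dead 1 h replicate 2. The count of 4 members came to 1 without kinase-dead 1 h replicate 1 and to 2 without WT 1 h replicate 1 or 2, kinase-dead unstimulated replicate 2 or kinase-dead 1 h replicate 2.

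At 4 h, 5 members had a higher and 2 a lower response in kinase-dead than in WT cells, 1.89% and 0.758% of the members. Among all genes 1.46% were called higher and 1.58% lower. Centring the arrays on their medians gave 5 higher and 4 lower members, with no share of all genes given here. The median over all genes was 0.11 in this comparison and that over the members 0.16. For Zfp503, the kinase-dead signals were 442 and 460.4 without IL-1b, 484 and 545 after 1 h, and 453 and 440.3 after 4 h. These 6 arrays of Zfp503 all lay above the WT arrays at 4 h. Kinase-dead minus WT, the response of Zfp503 differed by 1.23 ± 0.18 (adjusted p = 0.000921, limma). Zfp521 stood at 208 and 205 in unstimulated kinase-dead cells, 224 and 287 after 1 h of IL-1b, and 237 and 246 after 4 h. The difference of the Zfp521 responses, kinase dead minus WT, was 1.11 ± 0.20 (SE) on the log2 scale (adjusted p = 0.00424, limma). Kinase-dead arrays of Zfp521 ran from 205 to 287 over the 3 times, near the WT arrays at 4 h. Leaving out WT unstimulated replicate 1 turned the count of 7 into 11, and leaving out kinase-dead 4 h replicate 1 turned it into 4.

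Zfp263 and Zfp655 were the members whose 4 h response was lower in kinase-dead cells. On kinase-dead arrays the signal of Zfp263 was 2269 and 2203 unstimulated, 1832 and 1822 at 1 h, and 2313 and 2301 at 4 h. Kinase-dead minus WT, the response of Zfp263 differed by -0.63 ± 0.11 (adjusted p = 0.00384, limma). The 1 h arrays were the lowest in kinase-dead cells, and the 4 h arrays lay just above the unstimulated ones. Zfp655 signals in kinase-dead cells were 1158 and 1184 unstimulated, 1384 and 1350 after 1 h, and 1056 and 1082 after 4 h. The difference of the Zfp655 responses, kinase dead minus WT, was -0.61 ± 0.12 (SE) on the log2 scale (adjusted p = 0.00844, limma). For Zfp655 the 1 h arrays were highest in kinase-dead cells, and the 4 h arrays were highest in WT cells. Without a variance trend the adjusted p was 0.0549 for Zfp521, 0.0832 for Zfp263 and 0.0771 for Zfp655; Zfp503 kept its call.

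Zfp362, Zfp667 and Zfp704 also differed at 4 h, in calls that rest on single arrays. In kinase-dead cells Zfp362 had signals of 608 and 716 unstimulated, 623.5 and 666 at 1 h, and 634 and 625 at 4 h. All 6 lay above every WT array of the gene. Kinase-dead minus WT, the response of Zfp362 differed by 0.80 ± 0.17 (adjusted p = 0.0161, limma). Its call was lost in 4 fits without 1 array, at up to 0.0755 without kinase-dead unstimulated replicate 1. The kinase-dead arrays of Zfp667 gave 129 and 117 unstimulated, 112 and 109 at 1 h, and 155 and 132 at 4 h. Its 4 h arrays were the highest in kinase-dead cells and among the lowest in WT cells. The difference of the Zfp667 responses, kinase dead minus WT, was 1.11 ± 0.25 (SE) on the log2 scale (adjusted p = 0.0188, limma). That call was lost in 4 such fits, at up to 0.101 without kinase-dead 4 h replicate 1. For Zfp704, the kinase-dead signals were 129 and 187 without IL-1b, 163 and 153 after 1 h, and 178 and 197 after 4 h. The kinase-dead groups of Zfp704 overlapped. Kinase-dead minus WT, the response of Zfp704 differed by 1.22 ± 0.28 (adjusted p = 0.0221, limma). For Zfp704 it was lost in 5, at up to 0.102 without kinase-dead unstimulated replicate 1.

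Before stimulation, 12 members were higher and 7 lower in kinase-dead than in WT cells, 4.55% and 2.65% of the members, where 7.4% of all genes were called higher and 6.98% lower. The macrophage markers summed to 460 to 549 on kinase-dead arrays, against 193 to 245 on WT arrays, and the neural markers to 637 to 733, against 369 to 459. The 5 pluripotency markers, of which 2 passed the filter, summed to 154 to 209 on kinase-dead arrays, against 67.1 to 107 on WT arrays. Sox2 is counted in this sum and in the neural one. The sums take in markers that did not pass the filter, among them the macrophage genes Itgam and Cd14. The actin 3'/5' signal ratio averaged 2.85 ± 0.0178 in unstimulated kinase-dead cells and 2.41 ± 0.385 in unstimulated WT cells (SD, n = 2 each). Their part in these differences was not tested. Without kinase-dead unstimulated replicate 2 the count of 19 was 9.

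Zfp521, Zfp362 and Zfp703 differed in every fit without 1 array. Zfp521 had 208 and 205 in unstimulated kinase-dead cells, against 429.5 and 417 in unstimulated WT cells, so every kinase-dead array was lower. The log2 difference of Zfp521 was -1.01 ± 0.14 (SE), at an adjusted p of 0.000102 in limma. The second probe set of Zfp521 was not called here (log2 fold change -0.19, adjusted p = 0.593). Zfp362 was the opposite case, with 608 and 716 in kinase-dead cells, against 356 and 301.5 in WT cells. This gave Zfp362 a log2 difference of 0.99 ± 0.12 (adjusted p = 2.34e-05, limma). Zfp703 had 622 and 593 in kinase-dead cells, against 1006 and 1144 in WT cells. The log2 difference of Zfp703 was -0.81 ± 0.10 (SE), at an adjusted p of 3.13e-05 in limma.

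Of the rest, Zfp420 was lower in kinase-dead cells (-0.85 ± 0.17, adjusted p = 0.00265, limma), a call lost without kinase-dead unstimulated replicate 1 (adjusted p = 0.053). Zfp281 was lower (-0.36 ± 0.09, adjusted p = 0.0108, limma), a call lost without WT or kinase-dead unstimulated replicate 2. Zfp90 had 83.4 and 98.2 in kinase-dead cells, against 36.6 and 46 in WT cells (1.01 ± 0.25, adjusted p = 0.011, limma), and lost its call without WT unstimulated replicate 1 (adjusted p = 0.0645) or kinase-dead unstimulated replicate 2 (0.0963). Zfp318, which controls IgD expression in B cells, was called higher (0.43 ± 0.14, adjusted p = 0.0471, limma), but the call was lost in 10 of 12 fits without 1 array, with an adjusted p of up to 0.159 without kinase-dead unstimulated replicate 1.

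The falls at 1 h in WT cells, though not those in kinase-dead cells, were found at every level of signal. In WT cells 24 of 100 members with a mean signal between 50 and 200 fell, 24.0%, where 5.25% of all genes of that level did. Above 200, 12 of 70 members fell, 17.1% against 6.38% of all genes, and below 50, 5 of 94, 5.32% against 1.37%. The median log2 fold change of the members was -0.29 below 50, -0.38 between 50 and 200 and -0.07 above 200, with -0.17, -0.11 and 0.01 over all genes of those levels. Restricting the members to the 177 that reached 25.5 on every array left 32 falls and 3 rises. Leaving out the 24 on probe sets named for possible cross-hybridization left 38 falls and 1 rise. All genes were not restricted in these ways, so no share is set beside these counts.

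The members lay on 20 chromosomes, with 69 on chromosome 7 and 36 on chromosome 17. The falls at 1 h in WT cells were spread over these: 13 of 69 members fell on chromosome 7 (18.8%, and 5.24% of all genes there), 7 of 36 on chromosome 17 (19.4% and 4.71%) and 5 of 20 on chromosome 8 (25% and 5.96%). None of 14 members fell on chromosome 6, where 4.43% of all genes did. Members that follow each other with no other protein-coding gene between them formed 39 runs, which held 108 members, and 22 of these fell (20.4%), as did 19 of the 156 members outside runs (12.2%), a difference that was not tested. In the longest run, of 8 genes on chromosome 7 that includes Zfp420 and Zfp568, 1 fell and Zfp568 rose. Of the 7 on chromosome 17 around Zfp53, 1 fell. In another run, of Zfp799 and Zfp870 on chromosome 17, both fell. The call of Zfp870 (log2 fold change -0.84, adjusted p = 0.0457, limma) was lost in each of the 12 fits without 1 array.

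**Figure D5:**
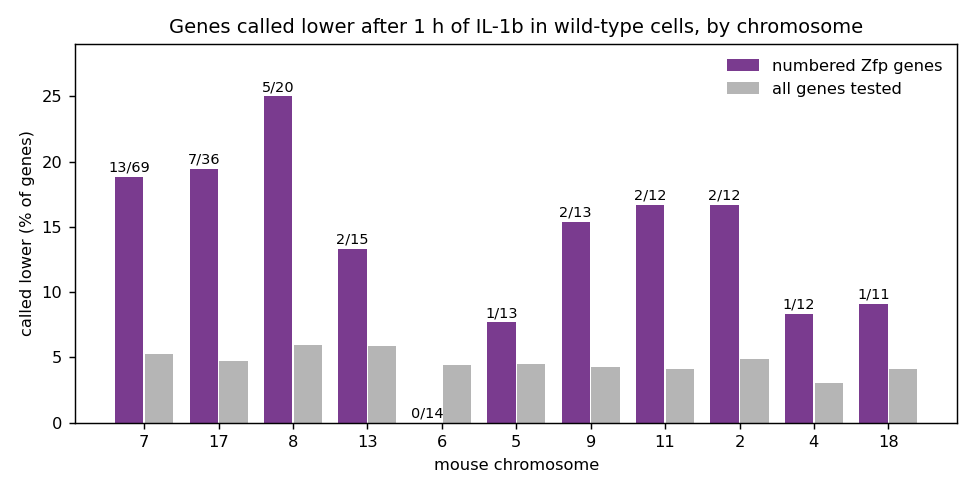
Bars give the percentage of genes called lower after 1 h of IL-1b in WT cells on the 11 mouse chromosomes with at least 10 members, for the members and for all genes tested there; labels give members called over members present. The members reach 18.8% on chromosome 7, 19.4% on chromosome 17 and 25% on chromosome 8, with 0 of 14 on chromosome 6.

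RefSeq start sites were matched for 216 of the 264 members, which gave 266 windows of 250 bases, and for 31 of the 41 that fell, which gave 38. CCAAT, on either strand, was found in 44.4% of the windows of members and in 34.7% of those of all genes tested. Among the members it was found in 47.4% of the windows of those that fell in WT cells at 1 h and in 43.9% of the others. CCGGAAG was found in 16.2% of member windows and 12.5% over all genes tested, TATAAA in 6.77% and 6.95%, TGACTCA (AP-1) in 3.38% and 3.30%, and TGACGTCA in 2.26% and 2.43%. The NF-kB consensus was found in 6.77% of member windows, in 13.2% of those of members that fell, and in 8.82% over all genes tested; the 13.2% rests on 5 windows of 38. The windows of members had a median GC content of 55.2%, against 59.6% over all genes tested. These counts describe letters, overlapping matches of different motifs were counted for each, and no test was made.

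Many members have more than 1 probe set. Agreement between probe sets was counted for members only, so these counts cannot be read as a trait of the members. Of the 44 called in WT cells at 1 h, 17 had another that passed the filter: for 6 it was called in the same direction, for 0 in the opposite one and for 11 it was not called. At 4 h against unstimulated WT cells the other probe sets of 13 called members gave 2 calls in the same direction, and between the times those of 32 gave 13 in the same direction and 1 in the opposite one. In kinase-dead cells the other probe sets of 7 members called at 1 h gave 1 call in the same direction, and those of 10 called between the times gave 1. For the response differences, those of 1 member at 1 h and 4 at 4 h gave 0 calls, and for the genotypes before stimulation those of 9 members gave 0, with 4 of the 9 on the same side. Transcripts of near-identical paralogs can hybridise to one probe set, so the 24 members on such probe sets, Zfp263 and Zfp292 among them, are uncertain in identity.

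Other C2H2 families were counted in the same comparisons. Of 32 Zbtb genes, 1 rose and 6 fell in WT cells at 1 h, with a median of -0.28, and 10 rose and 1 fell between 1 h and 4 h. Of 15 Zscan and Zkscan genes, 1 rose and 2 fell at 1 h, with a median of -0.24, and 0 rose and 2 fell between the times. Over all genes 2.92% were called higher and 4.56% lower at 1 h, and 8.4% and 10.6% between the times. No test set these families against the members.

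The genes through which KRAB proteins act were listed apart, as 25 TRIM28 corepressor and heterochromatin genes, of which 22 were tested. In WT cells at 1 h, 1 of the 22 was called: Atf7ip, a partner of SETDB1, rose (log2 fold change 0.56 ± 0.16, adjusted p = 0.0352, limma). Among all genes 2.92% were called higher and 4.56% lower there. None was called in kinase-dead cells at 1 h, where 1.55% of all genes were called higher and 1.72% lower. At 4 h Hdac1 fell in WT cells against unstimulated cells (-0.48, adjusted p = 0.0437, limma), and Morc3 rose in kinase-dead cells (0.43, adjusted p = 0.0335, limma). Of all genes 7.4% fell in the first comparison and 0.443% rose in the second. Between 1 h and 4 h in WT cells Morc3 rose, and Atf7ip, Hdac1, Hdac2, Uhrf1 and Ehmt2 fell. These are 1 and 5 of the 22, where 8.4% of all genes rose and 10.6% fell. In kinase-dead cells between the times Smarcad1 rose (0.97, adjusted p = 0.00152, limma), as did Morc3 (0.40, adjusted p = 0.0196, limma). Of all genes 2.28% rose and 1.83% fell there. Before stimulation Dnmt3a (0.62, adjusted p = 0.00121, limma) and Cbx5 (0.32, adjusted p = 0.0276, limma) were higher in kinase-dead than in WT cells. Suv39h2 was lower (-0.70, adjusted p = 0.027, limma). Of all genes 7.4% were called higher and 6.98% lower in that comparison. Trim28 gave -0.03 at 1 h in WT cells (adjusted p = 0.938), and Setdb1 -0.37 (adjusted p = 0.389).

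Of 17 members listed for what is known of them, 13 were tested. Zfp42 and Zfp423 did not pass the filter, with highest signals of 8.6 and 23.5. Zfp106, an RNA-binding protein, ran from 1962 to 2267 on the 12 arrays and was called in no comparison. The same holds for Zfp148 (ZBP-89), a protein of GC-rich DNA, with signals of 905 to 1184, and for Zfp91, an atypical E3 ligase of the noncanonical NF-kB pathway, with 1336 to 1795. Over the 9 comparisons 94 members (35.6%) were called at least once and 170 in none, where 33.8% of all genes were called at least once.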

How the data were processed

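RNA of each culture was purified on RNeasy columns and labelled by the NuGEN Ovation method, per the labels' protocols. The deposited values are MAS5 signal intensities, 1 per probe set and array, per the submitters' processing notes; the version is not given in the sources used here, and each array's mean after trimming 2% from each end was 150. The table holds 45101 probe sets, 64 of them controls. Genes were named from the 34945 probe sets with 1 symbol in the platform annotation, of which 34741 matched a RefSeq gene by ID (GRCm38.p6).

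Arrays were grouped by title. The title of WT unstimulated replicate 1 lacks the genotype, and it was taken as WT because the series design has 6 arrays of each genotype. Signals were analysed as log2(signal + 8), which understates changes of low signals, with 1 probe set per gene that reached 25.5, the median of all values, on 2 or more arrays (12427 genes). A fit of 6 group means over 12 arrays (6 residual degrees of freedom) with limma 3.58.1 in R 4.3.3 used eBayes with a trend, two-sided tests and Benjamini-Hochberg adjustment over all genes, with calls at an adjusted p below 0.05. The procedure was run on simulated data with independent normal noise, in which signals were only raised, on the WT 1 h arrays. Falls were not simulated, and the outcome is not given here. Precision is limited by the 2 arrays in each group.

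Members and lists were chosen with earlier results of these data known. Per comparison, the genes named were the 12 largest falls and 8 largest rises among called members whose arrays did not overlap between groups, with the 5 highest and 3 lowest mean signals, a list of 17 members with known roles, and members that fell at 1 h and rose between 1 h and 4 h in WT cells; 82 genes were named so, and the text uses a part of them. The alternatives were other pseudocounts (1 and 32), no filter, a stricter filter (100), quantile normalization, median centring, no variance trend, only the compared groups, a replicate block, each of the 12 arrays left out, and 2 restrictions of the members chosen after seeing the data. A split of the members by protein domain was not made here, since no protein table was used here. Zfp143 and Zfp706, which have no probe set of a single symbol, were not analysed here.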

Additional observations from a re-analysis of the deposited data

Results flagged for a closer look

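The responses of 11 members to IL-1b differed between the genotypes by a test of the difference itself (kinase dead minus WT, log2 scale, limma). At 1 h the differences were 1.66 for Zfp87, 0.88 for Zfp703, 1.90 for Zfp768 and 0.84 for Zfp799. At 4 h they were 1.23 for Zfp503, 1.11 for Zfp521, 0.80 for Zfp362, 1.11 for Zfp667 and 1.22 for Zfp704, and on the other side -0.63 for Zfp263 and -0.61 for Zfp655. Each group holds 2 arrays, too few to ask whether 1 array stands apart. The differences of Zfp87 at 1 h and of Zfp263, Zfp503, Zfp521 and Zfp655 at 4 h held in each of the 12 fits without 1 array, and the other 6 were lost in some. Zfp521, Zfp362 and Zfp703 also differed between the genotypes before stimulation, by -1.01, 0.99 and -0.81; those arrays enter the response as well.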

How the results depend on the processing

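Counts of called members kept within 1.5 times the reported ones under both other pseudocounts, the stricter filter and both other normalizations. The stricter filter kept only 137 of the 264 members, so its counts are larger shares of a smaller set where they stay alike. Without a variance trend the 44 calls of WT cells at 1 h became 27, the 15 of kinase-dead cells at 1 h became 3, the 20 between the times in kinase-dead cells became 4, the response differences became 0 at 1 h and 2 at 4 h, and the 19 between unstimulated cells became 9. Fitting only the compared groups gave 20 in WT cells at 1 h, 12 at 4 h, 2 response differences at 1 h and 8 between unstimulated cells, with fewer arrays for the spread. Without a filter the 20 between the times in kinase-dead cells became 12. Of the other moves the cause was not tested. Median centring turned the split at 4 h in WT cells to 14 higher and 11 lower, and that of the 4 h response difference to 5 and 4. No share over all genes is set beside these centred counts. Leaving out 1 array at a time, the counts ran from 22 to 44 (WT, 1 h), 18 to 29 (WT, 4 h), 38 to 69 (WT, 4 h against 1 h), 3 to 21 (kinase dead, 1 h), 0 to 1 (kinase dead, 4 h), 2 to 21 (kinase dead, 4 h against 1 h), 1 to 4 and 4 to 11 (response differences at 1 h and 4 h) and 9 to 20 (unstimulated). With a replicate block the counts in this order were 42, 28, 63, 13, 0, 20, 4, 7 and 17. The main fit did not pair arrays by replicate number. Deviations of same-numbered arrays correlated at -0.05 to 0.10, above 0.1 in 1 of 15 pairs of groups. With 2 arrays in each group this cannot exclude that same-numbered arrays belong together. Of 176 calls of named members, 61 held in each fit without 1 array and 94 were lost under some other setting; none changed sign. Zfp317 at 4 h in WT cells gained a call with the stricter filter and with quantile normalization. Low signal limits the 87 members that were below 25.5 on some arrays.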
